A study of Mus musculus and Mus musculus
Oryx dammah with 30 samples.

Results

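Translation initiation factor genes were followed through RNA-seq of mouse nuclear transfer (NT) embryos. The members were all protein-coding genes whose symbol begins with Eif and a digit from 1 to 6, apart from one gene that the selection leaves out, which gave 56 genes. Of these, 54 are listed in the four-cell table and in the replication table, each of 53023 genes, and 56 in the two-cell table of 55364 genes. Initiation factors bring the initiator tRNA, the small ribosomal subunit and the capped mRNA together and then release themselves when the large subunit joins. eIF2 carries the initiator tRNA, eIF2B reloads eIF2 with GTP, eIF3 holds the preinitiation complex together, and the cap-binding protein eIF4E, the scaffold eIF4G and the helicase eIF4A recruit the mRNA. In the oocyte and cleavage embryo, where stored maternal mRNAs are translated before the embryonic genome is active, eIF4E and the proteins that bind it are known points of control.

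The question of the study was whether nuclei of differentiated cells start embryonic transcription after transfer into arrested embryos, without dividing. Recipients were embryos from C57BL/6 oocytes fertilized in vitro with DBA/2 sperm. The donors were C2C12 cells, a single myoblast line from the C3H strain, and donor cells were fused to each recipient. In all groups the embryos were arrested with 0.1 µg/ml demecolcine and cultured for 24 h after NT, and α-amanitin, which blocks RNA polymerase II, was present or absent during that culture. The four-cell groups with α-amanitin (+) and without it (-) had 3 libraries each, from pools of 3 embryos that received NT at 46 h post insemination (hpi). The two-cell groups had 6 libraries each, from pools of 5 embryos that received NT at the early stage, 21 hpi, or the late stage, 30 hpi. The replication groups D and DR, untreated four-cell NT embryos of an experiment in which DNA replication either did or did not follow NT, had 3 libraries each from pools of 4 embryos, and which letter stands for which condition is not stated. Recipient and donor transcripts were counted together, so each value sums the embryo's own genomes, the stored maternal RNA and the C2C12 nuclei.

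Two-cell libraries are called here by the column names Am1 to Am3, NT1 to NT3, RAm1 to RAm3 and r1, r2 and R3 (the R libraries). The names do not say which set is early and which is late. The R columns carry no treatment letters and were taken as untreated because the RAm columns carry "Am", which gives the 6 treated and 6 untreated libraries of the sample names. Reads counted on genes and spike-ins ran from 1136771 to 3101002 per four-cell library, from 4712271 to 10503830 per two-cell library and from 2603951 to 19181380 per replication library, where reads could only be approximated in the latter experiments. The RAm libraries stood apart: 20573 to 22351 genes had a value above 0 there, against 23573 to 24309 in Am, 26210 to 28270 in NT and 27454 to 27840 in R. Spike-in RNA took 8.77% to 11.2% of the reads in RAm and 6.54% to 8.93% in Am, against 2.38% to 2.81% in R and 3.15% to 6.26% in NT. Fewer cells and less RNA per cell cannot be told apart in such pools. Results for the NT and Am set alone are therefore given beside those with the RAm libraries. Oocyte and cleavage-embryo markers were abundant in all libraries, and cumulus cell markers summed to at most 4.84 FPKM. The donor's myoblast markers summed to 4.27 to 16.2 FPKM in four-cell (+) and 5.53 to 9.31 in four-cell (-) libraries. In the replication experiment they summed to 4.16 to 11.4 in DR and 6.43 to 33.1 in D. Of this list, Pax7 was at 0 in all 6 four-cell libraries, while Des, Chrna1 and Myod1 reached 1 FPKM in 3 or more of them.

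Values are FPKM, fragments per kilobase of gene and scaled to the counted reads of the library, so levels of different genes can be compared within a library. Summed over all members, the FPKM were 7198 to 7397 in the four-cell (-) libraries and 5893 to 7679 in the (+) libraries. The D and DR libraries held 5023 to 5608 and 5002 to 5850.4. In two-cell embryos the sum was 3336 to 4864 in NT, 4590.3 to 5024 in R, 2294 to 2659 in Am and 573 to 611 in RAm. The RAm sum lay below that of all other libraries. In the (-) four-cell libraries the highest mean level was that of Eif5a, which helps the ribosome through stalls, at 1199 ± 138 FPKM (SD, n = 3). Eif4a3, a helicase of the exon junction complex, followed at 483 ± 86.1, then Eif4e at 479 ± 42.2, Eif3g at 407 ± 73.1 and Eif1 at 406 ± 109, 4 levels that do not differ beyond their spread. In untreated two-cell embryos Eif1, a start-codon proofreading factor, led with 871 ± 134 FPKM (SD, n = 6), followed by Eif4e at 499.6 ± 131 and Eif5a at 267 ± 92.4. The tables were normalized separately, so levels between experiments were not tested. The number of members at 1 FPKM or more was 46 to 50 per four-cell library, 51 to 53 per Am, NT or R library and 43 to 45 per RAm library.

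**Figure D1:**
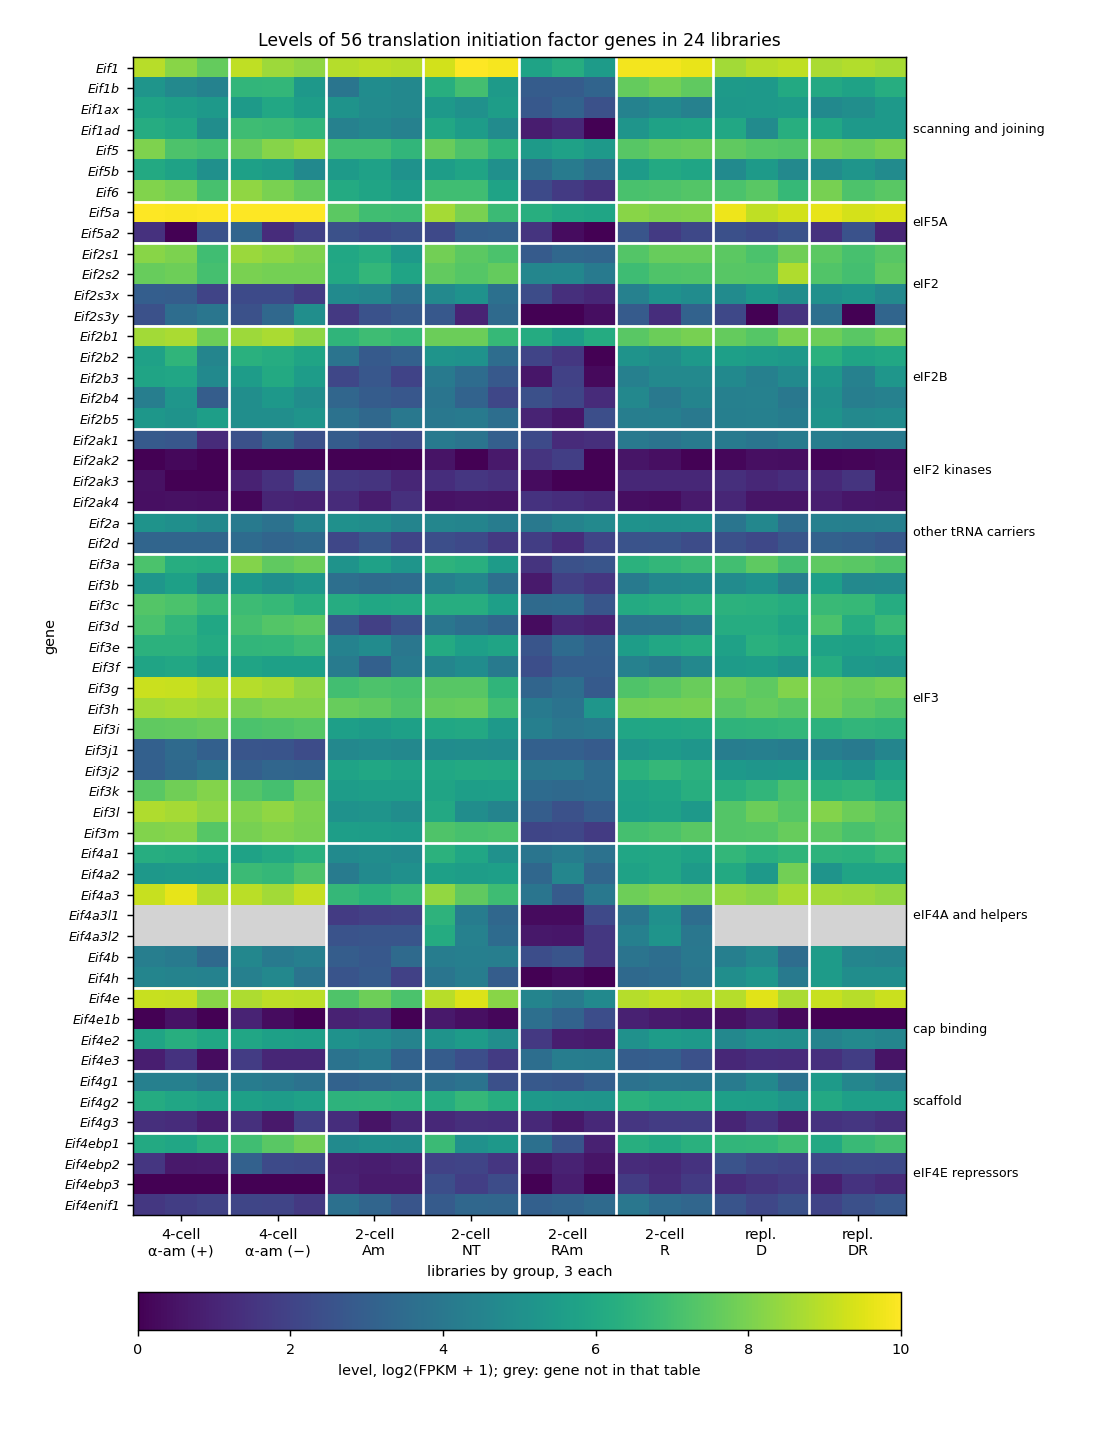
Level of each member gene (rows, grouped by role) in each of 24 libraries (columns, grouped by experiment and treatment), colored by log2(FPKM + 1), with grey where a gene is not listed. Low levels are dark and high levels bright. The RAm columns are dark for most rows, and the Eif4e1b row is brightest in the RAm columns, where it reached 11.5 FPKM.

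Changes were fitted with limma on log2(FPKM + 1), as untreated minus α-amanitin, and adjusted over all genes tested. A gene was called at an adjusted p under 0.05. Because 1 was added to each FPKM, log2 changes of low genes are understated. Libraries are separate pools, so p-values measure the spread between pools. In two-cell embryos, with both column sets in 1 comparison so that each group mixed both stages, 55 members could be tested, and Eif2ak2, the kinase PKR, was under the filter. Of the 55, 40 were higher without α-amanitin (72.7%) and 3 were lower, where 38.9% of all 17196 genes were higher and 8.51% lower. A 4-fold or larger rise was called for 20 members, against 11.1% of all genes. Among the 43 members called, the low genes Eif2ak4, Eif4e1b, Eif4ebp2 and Eif4ebp3 were tested only because of the group where they were high, having no library at 1 FPKM in the other, so their calls had to go that way and are given as levels. Of the other 51 members 38 were higher and 1, Eif4e3, was lower. The median log2 change was 1.46 over the members and 0.67 over all genes. Among genes with a mean FPKM of at least 5, 40 of 46 members and 51.5% of all genes were higher. The genes of the eIF4G scaffold and the tRNA carriers Eif2a and Eif2d were not among those called. Fibroblast markers, a list held beside the myoblast one, moved with this contrast too, and summed to 1.74 to 3.23 FPKM in Am and 14.3 to 56.8 in NT, and to 0.950 to 1.64 in RAm and 7.41 to 25.5 in R. Myoblast markers summed to 0.336 to 9.74 in Am, 2.47 to 26.6 in NT, 0.792 to 3.28 in RAm and 1.07 to 5.21 in R. The part of donor RNA in the members' values was not tested.

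The pair of column sets differed in size of the change. Between NT and Am, without the RAm libraries, 16 of 55 members were higher and 1 was lower, against 13.4% and 4.57% of all genes, or 14 and 1 without the 4 low genes, with a median log2 change of 0.65 for the members and 0.24 for all genes. That count depended on single libraries: it was 10 without Am1, 9 without Am2, 10 without Am3, 10 without NT1 and 23 without NT3. Of all genes 8.65%, 9.24%, 8%, 7.22% and 16.3% were then higher. The 1 lower call was lost without Am1, Am2, NT2 or NT3. Between R and RAm, 51 members were higher and 3 lower, or 49 and 1 without the 4 low genes, against 54.9% and 14% of all genes, with medians of 2.50 and 1.05. Among genes with a mean FPKM of at least 5, 44 of 46 members and 69.9% of all genes were higher there. The medians were then nearer to each other, at 2.87 and 2.07. The difference between the changes in both sets, fitted as an interaction after the values were seen, was called for 39 members. The change was larger in the R and RAm set for 38 and smaller for 1, the low gene Eif4e1b, against 36% and 8.46% of all genes. The stage of the embryos and the amount of RNA in the RAm pools, which was not measured, cannot be told apart as sources of this difference.

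**Figure D2:**
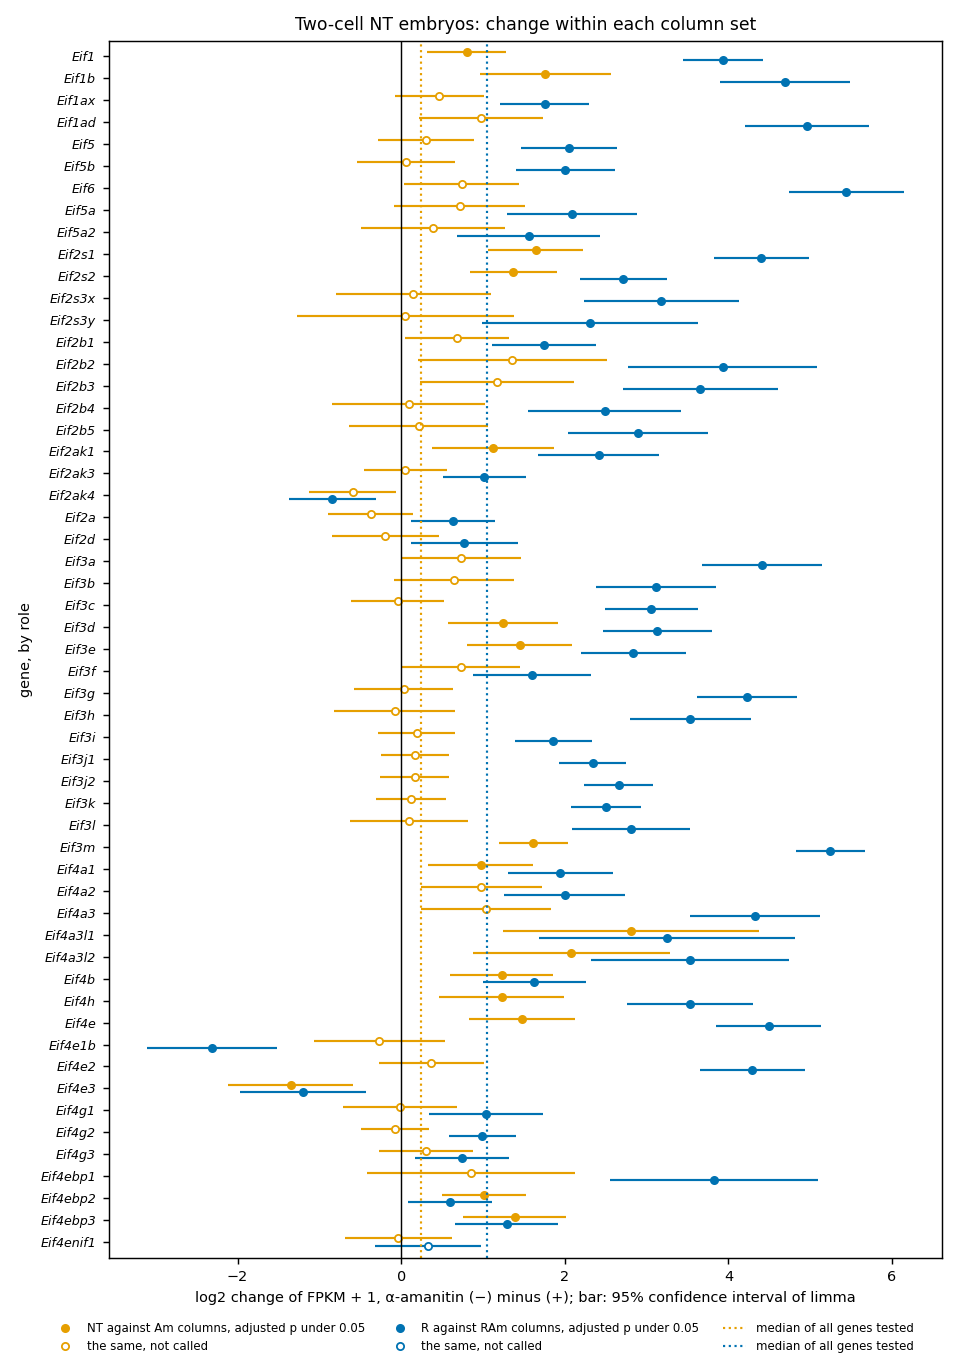
Log2 change without against with α-amanitin (horizontal axis, difference of log2(FPKM + 1)) of each of 55 tested members (rows, by role) within the NT and Am columns (orange) and the R and RAm columns (blue), with the 95% confidence interval of limma and dotted lines at the medians of all genes (0.24 and 1.05). For 51 of the 55 genes the blue point lies to the right of the orange one, and Eif4e3 lies left of 0 in both sets. Eif2ak4, Eif4e1b, Eif4ebp2 and Eif4ebp3 are drawn but entered the fit through 1 group only.

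These counts moved with the scaling, while the members' median stayed above that of all genes in the two-cell comparisons under each scaling tried. With size factors set by the median ratio of genes, 24 members were called higher and 2 lower over the 12 two-cell libraries, 7 and 1 between NT and Am, and 35 and 5 between R and RAm. Of all genes 21.9% were then higher and 14.2% lower over the 12 libraries, 6.33% and 4.83% between NT and Am, and 36.6% and 24.9% between R and RAm. The members' medians were then 0.73, 0.42 and 1.32, and the medians of all genes 0.24, 0.07 and 0.38. Scaled to the 47 spike-ins, 52 members were higher and 0 lower over the 12 libraries, with 35 and 0 between NT and Am and 52 and 1 between R and RAm. The share of all genes called higher was then 71.4%, 35.1% and 76.2%. The medians were then 2.80, 1.40 and 4.39 for the members and 1.49, 0.80 and 2.20 for all genes. The share of higher calls among all genes' calls was 82.1% as deposited, 60.7% with size factors and 97.8% with spike-ins.

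**Figure D3:**
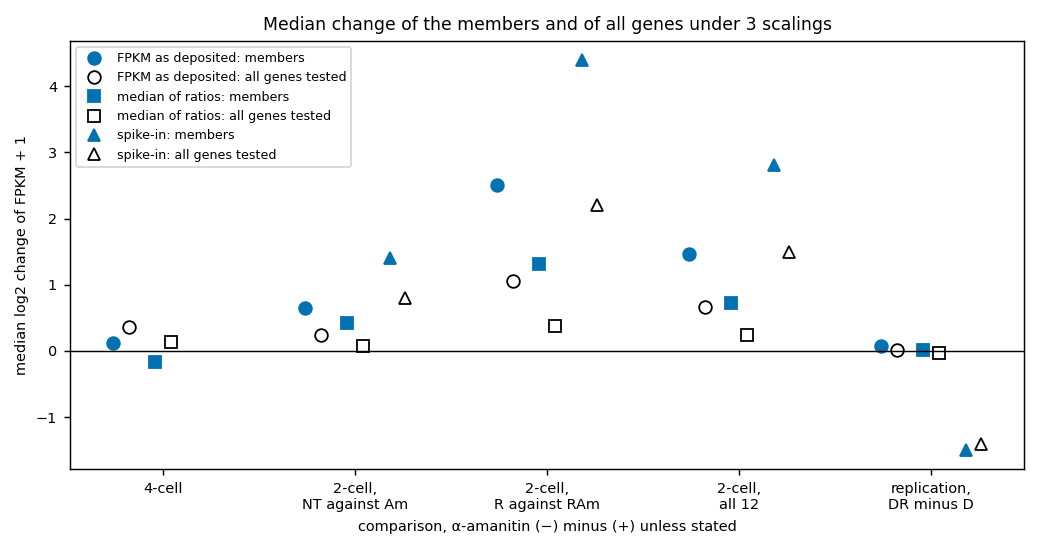
Median log2 change of the members and of all tested genes (vertical axis) for each contrast, on FPKM as deposited, with median-ratio size factors and with spike-in scaling where spike-ins were listed. Both medians shift with the scaling; in the R and RAm columns the members' median was 2.50 as deposited, 1.32 with size factors and 4.39 with spike-ins.

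Factors of start-codon scanning and subunit joining were the role with the largest median change between R and RAm, 3.93 on the log2 scale over 7 genes, all called higher there. Over all 12 libraries 5 of the 7 were called, and 2 between NT and Am. The share of all genes called higher was 54.9% between R and RAm, 38.9% over 12 libraries and 13.4% between NT and Am. Eif1b, a close relative of Eif1, was at 13.7, 28.4 and 24.3 FPKM in the Am libraries against 75.4, 129 and 42.3 in the NT libraries, and 6.49, 6.44 and 8.39 in the RAm libraries against 198, 238 and 189.7 in the R libraries. Its untreated and treated libraries did not overlap in either set, and its log2 change was 3.23 (SE 0.52, adjusted p = 0.00057) over 12 libraries. Eif1 itself was at 467, 514 and 489 FPKM in the Am libraries against 639.7, 1031 and 938 in the NT libraries, and 54.8, 73.4 and 44.3 in the RAm libraries against 909, 897 and 813 in the R libraries, a log2 change of 2.36 (SE 0.64, adjusted p = 0.0105). Both rose within each set, Eif1b by 1.76 and 4.69 and Eif1 by 0.80 and 3.93 on the log2 scale, although the Eif1 call between NT and Am held in 12 of 20 settings. Of the FPKM summed over the eIF1 genes, Eif1b took 17.9% to 21.0% in R and 8.07% to 15.9% in RAm, against 4.31% to 11.1% in NT and 2.85% to 5.25% in Am. Eif6, which keeps the large subunit from joining too early, was at 67.5, 56 and 45.1 FPKM in the Am libraries against 122, 121 and 55 in the NT libraries, and 3.74, 2.28 and 1.62 in the RAm libraries against 137, 148 and 160.4 in the R libraries. The NT3 value of 55 lay among the Am values and Eif6 was not called there, while its change of 5.44 between R and RAm was the largest of all members. Eif1ad, an eIF1A-domain gene, behaved alike in that it was called over 12 libraries (log2 change 2.97, adjusted p = 0.0082) and between R and RAm (log2 change 4.97, adjusted p = 1.63e-07) but not between NT and Am. Its levels were 20.03, 23.9 and 19.8 FPKM in the Am libraries against 63, 45.1 and 27.2 in the NT libraries, and 0.739, 1.14 and 0 in the RAm libraries against 35.7, 53 and 56.2 in the R libraries. Eif1ax was called between R and RAm alone (log2 change 1.75, adjusted p = 4.93e-05), with 34.4, 27.1 and 24.4 FPKM in the Am libraries against 41.5, 32.3 and 46.1 in the NT libraries, and 5.75, 7.89 and 4.57 in the RAm libraries against 20.9, 26.5 and 20.2 in the R libraries. Eif5, the GTPase activator of eIF2, and Eif5b, the joining GTPase, were higher by 2.05 and 2.01 in the R libraries than in RAm.

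Of the elongation-linked eIF5A pair, Eif5a was called over 12 libraries (log2 change 1.40, adjusted p = 0.0156) and Eif5a2 was not, while both were higher between R and RAm, by 2.09 and 1.56. Eif5a was at 179.8, 122 and 116 FPKM in the Am libraries against 398, 253 and 112 in the NT libraries, and 75.9, 62.7 and 57.8 in the RAm libraries against 301, 265 and 276 in the R libraries. The NT3 value lay below all Am values, and the R and RAm libraries did not overlap. Eif5a2 was low throughout, at 4.62, 3.73 and 4.44 FPKM in the Am libraries against 3.59, 7.23 and 7.65 in the NT libraries, and 1.84, 0.248 and 0 in the RAm libraries against 5.16, 2.26 and 3.49 in the R libraries.

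All members of eIF2 and eIF2B that were called went the same way. Of the 4 eIF2 subunit genes, 3 were higher over 12 libraries, 2 between NT and Am and 4 between R and RAm, against 38.9%, 13.4% and 54.9% of all genes. Eif2s1, the α subunit that the stress kinases phosphorylate, was at 60.4, 74 and 41.7 FPKM in the Am libraries against 232, 179.8 and 141 in the NT libraries, and 6.23, 9.18 and 8.68 in the RAm libraries against 159.9, 203 and 204 in the R libraries. That was a log2 change of 3.02 (SE 0.59, adjusted p = 0.00185), with no overlap within either set. Eif2s2, the β subunit, was higher by 1.37 and 2.72 on the log2 scale in the sets. The γ subunit has an X-linked and a Y-linked gene. Eif2s3x was at 26.3, 23.1 and 11.9 FPKM in the Am libraries against 25.1, 33.6 and 11.8 in the NT libraries, and 4.06, 1.52 and 1.18 in the RAm libraries against 19.9, 33 and 27.8 in the R libraries, so that NT and Am overlapped, and it was called over 12 libraries (log2 change 1.66, adjusted p = 0.0385) in 10 of 21 settings, with adjusted p up to 0.116. Eif2s3y was at 2.14, 4.74 and 6.30 FPKM in the Am libraries against 5.72, 0.984 and 9.95 in the NT libraries, and 0, 0 and 0.310 in the RAm libraries against 6.26, 1.48 and 7.84 in the R libraries. Eif2s3y was called between R and RAm alone (log2 change 2.31, adjusted p = 0.00482), and the Y-linked genes measured summed to 0.165 to 2.00 FPKM in RAm and 9.76 to 16.2 in R, and to 5.26 to 9.35 in Am and 2.98 to 6.35 in NT. The sexes of the pooled embryos were not given. All 5 eIF2B genes, which encode the exchange factor of eIF2, were called higher over 12 libraries and between R and RAm, where 38.9% and 54.9% of all genes were. Between NT and Am limma called 0 of the 5, against 13.4% of all genes higher. There 3 of the 5 had an unadjusted p under 0.05 in limma, as had 5740 of all 17196 genes. Eif2b2, the β subunit, was at 13.4, 6.09 and 7.53 FPKM in the Am libraries against 35, 33.3 and 10.9 in the NT libraries, and 3.09, 2.04 and 0 in the RAm libraries against 34.6, 29.1 and 39.96 in the R libraries. Eif2b3, the γ subunit, was at 3.38, 5.63 and 3.05 FPKM in the Am libraries against 15.8, 10.5 and 5.99 in the NT libraries, and 0.510, 2.87 and 0.198 in the RAm libraries against 19.5, 24.9 and 25.4 in the R libraries. Their log2 changes over 12 libraries were 2.64 (SE 0.56, adjusted p = 0.00294) and 2.41 (SE 0.47, adjusted p = 0.00186), and for both the R and RAm libraries did not overlap.

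Of the eIF2 kinases, which shut initiation down under stress, 3 were tested. Eif2ak1, the heme-regulated kinase, was higher without α-amanitin (log2 change 1.77, adjusted p = 0.00216), by 1.12 between NT and Am and 2.41 between R and RAm. Eif2ak4, the amino acid sensor GCN2, was at low levels, with 1.34, 0.676 and 1.64 FPKM in the Am libraries against 0.412, 0.485 and 0.442 in the NT libraries, and 1.77, 1.48 and 1.25 in the RAm libraries against 0.283, 0.274 and 0.635 in the R libraries. No untreated library reached 1 FPKM, so it was tested only through the treated ones and its call, lower without α-amanitin, is not evidence of a change. Eif2ak3, the kinase PERK, was called between R and RAm alone (log2 change 1.01, adjusted p = 0.00195). The alternative tRNA carriers Eif2a and Eif2d were called there alone too, with changes of 0.63 and 0.77.

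The eIF3 complex, with 14 genes, was higher throughout between R and RAm. All 14 were called higher there, where 54.9% of all genes were, with changes from 1.60 for Eif3f to 5.24 for Eif3m and a median of 2.95, while 3 were called between NT and Am, where 13.4% of all genes were and the eIF3 median was 0.18. Over 12 libraries 13 were called, Eif3c being the exception. Eif3m was at 48.3, 46 and 43.8 FPKM in the Am libraries against 149.6, 135 and 144 in the NT libraries, and 3.22, 3.36 and 2.33 in the RAm libraries against 133, 144 and 171 in the R libraries. Its log2 change was 3.43 (SE 0.71, adjusted p = 0.0027) over 12 libraries and 1.61 and 5.24 within the sets, and in both sets the untreated libraries lay above all treated ones. Eif3a, the largest subunit and a scaffold of the complex, was at 34.7, 51.5 and 36.4 FPKM in the Am libraries against 87.6, 78.7 and 44.3 in the NT libraries, and 1.84, 4.59 and 5.23 in the RAm libraries against 82.9, 98.5 and 112 in the R libraries. The NT3 level of Eif3a was below the Am2 level, and its change was called over 12 libraries (log2 change 2.57, adjusted p = 0.00857) and between R and RAm (4.41). Eif3d, which can bind the cap itself, and Eif3e were the other members called between NT and Am, by 1.24 and 1.45. Eif3j1 and Eif3j2 are near-identical copies whose reads may be split between them, so their changes between R and RAm of 2.34 and 2.66 are uncertain.

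The eIF4A helicases and their helpers Eif4b and Eif4h were all called higher over 12 libraries, 7 of 7, against 38.9% of all genes. Between R and RAm 7 were called, against 54.9% of all genes, and between NT and Am 5, against 13.4%. Of the 5, Eif4a1 kept the call in 9 of 20 settings, Eif4h in 13, Eif4a3l1 in 13 and Eif4a3l2 in 14. Eif4a3 was at 101, 82.3 and 102 FPKM in the Am libraries against 333, 187 and 118 in the NT libraries, and 13.6, 6.26 and 15.2 in the RAm libraries against 223, 252 and 242 in the R libraries. The change was 2.68 (SE 0.65, adjusted p = 0.00631) over 12 libraries, and Eif4a3 was not called between NT and Am. Eif4a1, the helicase of general initiation, was at 26.9, 29.3 and 26.3 FPKM in the Am libraries against 84.3, 59.8 and 32.7 in the NT libraries, and 13.6, 17.5 and 12.6 in the RAm libraries against 59.6, 62.8 and 53.5 in the R libraries. Eif4a2, its paralogue, was at 16.9, 26.7 and 31.1 FPKM in the Am libraries against 50.1, 46.6 and 49.1 in the NT libraries, and 9.18, 22.8 and 8.82 in the RAm libraries against 53.4, 63.2 and 42.4 in the R libraries. Both rose less than Eif4a3 between R and RAm in the fitted values, by 1.95 and 2.00 against 4.32; these differences between genes were not tested. Of the FPKM summed over the 3 eIF4A genes, Eif4a3 took 13.4% to 41.6% in RAm and 59.1% to 71.7% in the other two-cell libraries. Eif4a3l1 and Eif4a3l2 are close copies of Eif4a3 listed in the two-cell table alone, and reads may be shared with it. Eif4a3l1 was at 2.33, 2.70 and 2.89 FPKM in the Am libraries against 87.4, 17.2 and 9.19 in the NT libraries, and 0.224, 0.210 and 3.56 in the RAm libraries against 14.2, 31.4 and 10.8 in the R libraries, a log2 change of 3.03 (adjusted p = 0.00108). Eif4a3l2 was at 4.82, 5.21 and 5.24 FPKM in the Am libraries against 69.3, 20.3 and 10.4 in the NT libraries, and 0.583, 0.506 and 2.08 in the RAm libraries against 19.4, 34.9 and 14.5 in the R libraries, a change of 2.81 (adjusted p = 0.00131). In both, NT1 was far above NT2 and NT3. Eif4h, a cofactor of eIF4A, was at 5.12, 6.20 and 2.81 FPKM in the Am libraries against 13.8, 18.1 and 6.67 in the NT libraries, and 0, 0.184 and 0.0258 in the RAm libraries against 9.57, 10.7 and 14.1 in the R libraries, with a change of 2.38 (adjusted p = 0.00356).

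Promoters are shown for 4 members, the first by size of the two-cell rise that had a single start and enough sequence free of annotated exons, passing over the Eif4a3-like copies. Sequences and starts are those of RefSeq for GRCm38.p6, which has the coordinates of mm10, and each run ends at the base before the start and reads 5′ to 3′ on the gene's strand. Capitals mark matches to the E-box CACGTG, the GC box GGGCGG or its reverse complement, and the ETS motif CCGGAAG.
Eif4a3 (chr11:119300090-119300239, minus strand): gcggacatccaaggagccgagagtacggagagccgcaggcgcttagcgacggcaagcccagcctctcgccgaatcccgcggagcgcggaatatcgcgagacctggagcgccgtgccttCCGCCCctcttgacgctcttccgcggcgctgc
Eif2b2 (chr12:85219331-85219480, plus strand): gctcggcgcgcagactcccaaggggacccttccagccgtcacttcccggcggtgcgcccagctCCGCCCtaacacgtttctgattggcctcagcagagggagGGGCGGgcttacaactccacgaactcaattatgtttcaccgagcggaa
Eif3a (chr19:60790694-60790843, minus strand): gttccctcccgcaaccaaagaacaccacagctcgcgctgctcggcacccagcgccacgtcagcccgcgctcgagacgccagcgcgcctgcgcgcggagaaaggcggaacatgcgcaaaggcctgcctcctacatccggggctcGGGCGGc
Eif4h (chr5:134639491-134639640, minus strand): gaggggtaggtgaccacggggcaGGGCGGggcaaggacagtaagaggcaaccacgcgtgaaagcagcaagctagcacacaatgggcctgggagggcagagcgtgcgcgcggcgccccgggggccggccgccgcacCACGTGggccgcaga
All 4 stretches were rich in G and C, at 69.3%, 62.7%, 70.7% and 72%. Eif2b2 held 2 GC boxes, and Eif4a3, Eif3a and Eif4h held 1 each, with an E-box in Eif4h. A promoter entry was found for 44 of the 56 members. In the 250 bases before the start, searched on both strands, 32 members (72.7%) held a GC box, against 35.4% of all 27025 genes. An E-box stood in 9 members (20.5% against 6.86%), the ETS motif in 12 (27.3% against 7.83%) and the ZFP281-type motif in 2 (4.55% against 3.41%). These matches describe the letters in the windows, and binding was not measured. The 27025 genes were not matched to the members in expression, and whether the shares are particular to initiation factor genes was not tested.

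Among the cap-binding genes the members moved in opposite directions. Eif4e (mm10 chr3:138526179-138559696), the main cap-binding protein, was at 152, 222 and 142 FPKM in the Am libraries against 490.1, 710.0 and 301 in the NT libraries, and 22, 16.9 and 25.5 in the RAm libraries against 475, 533 and 489 in the R libraries. Its untreated libraries lay above all treated ones in both sets, with a log2 change of 2.98 (SE 0.63, adjusted p = 0.00297) over 12 libraries, 1.48 (adjusted p = 0.00699) between NT and Am and 4.49 (adjusted p = 9.87e-08) between R and RAm. Eif4e2, also known as 4EHP, a cap-binding protein that represses translation, was at 33.1, 28.2 and 21.4 FPKM in the Am libraries against 33.7, 43.3 and 30.00 in the NT libraries, and 2.13, 0.725 and 0.630 in the RAm libraries against 32.1, 45.6 and 41.9 in the R libraries. It was called over 12 libraries (log2 change 2.33, adjusted p = 0.0216) and between R and RAm (4.29), with NT and Am overlapping. Eif4e3 (chr6:99625135-99666771), another cap-binding relative, was lower without α-amanitin, at 13, 16.5 and 7.76 FPKM in the Am libraries against 6.49, 4.22 and 2.31 in the NT libraries, and 11.3, 18.1 and 17.1 in the RAm libraries against 6.63, 7.26 and 4.54 in the R libraries. The change was -1.28 (SE 0.33, adjusted p = 0.00804) over 12 libraries, where spike-in scaling left -0.01 (adjusted p = 0.99), and Eif4e3 was lower within each set, with -1.35 (adjusted p = 0.0223) between NT and Am and -1.20 (adjusted p = 0.00913) between R and RAm, although spike-in scaling turned the latter to 0.62. The call between NT and Am held in 14 of 20 settings, with adjusted p up to 0.306. Eif4e1b (chr13:54783998-54788459), the oocyte-type eIF4E, was at 0.941, 1.14 and 0 FPKM in the Am libraries against 0.596, 0.338 and 0.117 in the NT libraries, and 11.5, 8.04 and 4.16 in the RAm libraries against 0.869, 0.658 and 0.525 in the R libraries. Outside the RAm libraries it was at 1.14 FPKM or less. It passed the filter only through α-amanitin libraries, so its higher level in RAm is a description.

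As shares of the FPKM summed over the 4 genes, Eif4e made up 90.3% to 93.7% in NT and R, 76.4% to 83.0% in Am and 38.6% to 53.8% in RAm. In RAm, Eif4e3 took 24.1% to 41.3% and Eif4e1b 8.76% to 24.4%, while Eif4e1b took at most 0.472% in the other two-cell libraries. The summed level itself was 43.7 to 47.4 FPKM in RAm and 515 to 586 in R. Other oocyte genes did not all follow Eif4e1b: of 8 oocyte and cleavage-embryo markers called between R and RAm, Bmp15 (-4.24), Oosp1 (-3.51), Nlrp5 (-2.59), Ooep (-2.16), Gdf9 (-1.46) and Zar1 (-1.46) were lower in R and Dppa3 (3.12) and Zp3 (1.66) were higher. Their summed level was 1353 to 3269 FPKM in RAm and 7369.6 to 9073 in R, most of it from Dppa3 in R. The part of retained oocyte RNA in the Eif4e1b value was not tested.

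**Figure D4:**
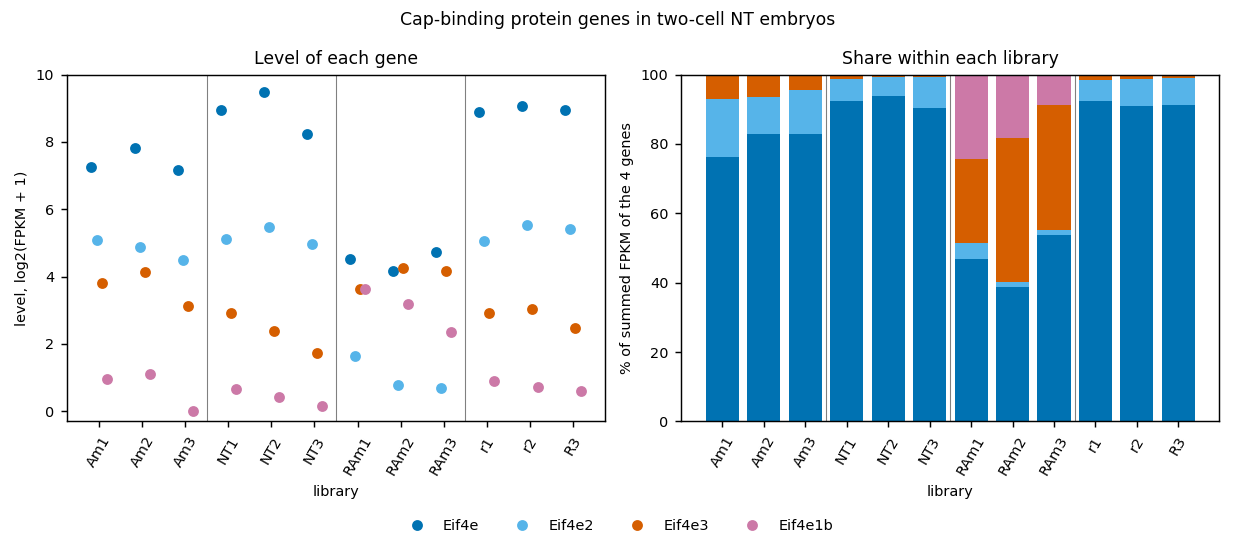
Levels of the 4 eIF4E family genes as points (left, log2(FPKM + 1)) and their shares of the family's summed FPKM as stacked bars (right, percent) in each of the 12 two-cell libraries. Eif4e made up 38.6% to 53.8% of the sum in RAm, where Eif4e3 and Eif4e1b took most of the rest.

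The eIF4G scaffolds bind eIF4E, and the eIF4E repressors compete with them. Eif4g2, a relative that lacks the eIF4E site, was at 86.3, 89.5 and 82.4 FPKM in the Am libraries against 72.6, 101 and 74 in the NT libraries, and 40.6, 37.5 and 35.7 in the RAm libraries against 82.6, 72.7 and 73.9 in the R libraries. Eif4g1, the main scaffold, was at 7.79, 8.98 and 10.1 FPKM in the Am libraries against 11.2, 13.2 and 4.42 in the NT libraries, and 5.99, 5.43 and 7.08 in the RAm libraries against 12.8, 14.3 and 13.6 in the R libraries. Eif4g3, a further scaffold, was at 1.48, 0.436 and 1.08 FPKM in the Am libraries against 1.24, 1.51 and 1.45 in the NT libraries, and 1.20, 0.563 and 1.21 in the RAm libraries against 2.00, 2.39 and 2.50 in the R libraries. All 3 were called between R and RAm, but neither over 12 libraries nor between NT and Am, by 1.03, 0.99 and 0.74 for Eif4g1, Eif4g2 and Eif4g3, and all 3 turned to -0.25, -0.40 and -0.10 with median-ratio size factors and reached 2.82, 2.96 and 1.96 with spike-ins, and the Eif4g3 call held in 14 of 19 settings. Eif4g2 made up 81.2% to 86.2% of the summed eIF4G level in RAm and 81.3% to 84.8% in R, a mix that overlapped. Eif4ebp1, the repressor that mTOR inactivates, was at 26.5, 30.3 and 29.1 FPKM in the Am libraries against 112, 32.4 and 39.6 in the NT libraries, and 11.9, 5.11 and 0.889 in the RAm libraries against 76.5, 66.1 and 79.7 in the R libraries. It was called over 12 libraries (log2 change 2.34, adjusted p = 0.011) and between R and RAm (3.82) but not between NT and Am. Eif4ebp2 was low, at 0.847, 0.723 and 0.893 FPKM in the Am libraries against 2.92, 3.18 and 2.02 in the NT libraries, and 0.462, 0.920 and 0.470 in the RAm libraries against 1.35, 1.22 and 1.73 in the R libraries. Eif4ebp3 was low too, at 0.998, 0.648 and 0.643 FPKM in the Am libraries against 4.24, 2.67 and 4.05 in the NT libraries, and 0, 0.735 and 0 in the RAm libraries against 2.30, 1.35 and 2.26 in the R libraries. For both, every untreated library was above 1 FPKM and every treated one below it, so they were tested only through the group where they were high. Eif4enif1, which carries eIF4E into the nucleus, was called in neither set.

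In four-cell embryos far fewer members were called. Of 49 tested, 3 were higher without α-amanitin and 0 lower, against 11.1% and 1.13% of all 9884 genes, so the members' share of 6.12% was below that of all genes. No member passed the 4-fold criterion, against 6.2% of all genes. The median log2 change was 0.12 over the members and 0.37 over all genes. At an unadjusted p under 0.05 limma gave 9 members and 2861 of all genes. The libraries of both groups did not overlap for 14 members, of which 8 were higher in all (-) libraries and 6 lower in all, against 27.6% and 7.56% of all genes.

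Eif4a2 (mm10 chr16:23107444-23114136) was at 111, 101 and 146 FPKM in the (-) libraries S15, S17 and S7, and at 39.8, 43.2 and 40.2 in the (+) libraries S16, S18 and S8. The log2 change was 1.50 (SE 0.25, adjusted p = 0.0107), a 2.83-fold rise on that scale, and the groups were far apart. As a share of the summed eIF4A level, Eif4a2 took 16.8% to 18.6% without and 4.76% to 7.30% with α-amanitin. Eif3a (chr19:60761116-60790693) was at 279, 186 and 214 in (-) and 143, 73.8 and 70.9 in (+), a change of 1.29 (SE 0.32, adjusted p = 0.0348). Eif4ebp1 (chr8:27260329-27276674) was at 120.1, 173 and 229.5 in (-) and 65.5, 60.1 and 82.3 in (+), a change of 1.28 (SE 0.29, adjusted p = 0.0263). In both genes every (-) library lay above every (+) library. The count was 6 without S16, 1 without S18, 0 without S15, 1 without S17 and 0 without S7. The share of all genes called higher was then 14.4%, 5.41%, 0.899%, 1.46% and 0.651%. Over 12 settings Eif4a2 was called in 10, Eif4ebp1 in 5 and Eif3a in 3. With median-ratio size factors 1 member was called higher and 1 lower, and the median turned to -0.17, while 7.69% of all genes were higher and 2.26% lower, with a median of 0.13.

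Other members did not pass the test. Eif1b was at 95.2, 98.1 and 39.5 FPKM in (-) and 36.4, 25 and 20.7 in (+), and Eif1ad was at 118, 112 and 95.7 in (-) and 72.9, 62 and 28.8 in (+). Eif4ebp2 was at 7.51, 3.68 and 3.52 in (-) and 2.01, 0.608 and 0.653 in (+). These genes had no overlap of the groups, and Eif4ebp2 was tested only through the (-) libraries, as were Eif4e3 and Eif5a2. Eif3h lay the other way, at 253, 283 and 285 in (-) and 389, 412 and 378 in (+), as did Eif2a, Eif3g, Eif3i, Eif3j1 and Eif4g2. Of the abundant members, Eif5a and Eif4e overlapped between the groups, with Eif5a at 1141, 1099 and 1356 in (-) and 1109, 990.3 and 1347 in (+) and Eif4e at 431, 509 and 498 in (-) and 564, 557 and 297 in (+). Under the filter were the kinase genes Eif2ak2, Eif2ak3 and Eif2ak4, Eif4e1b, and Eif4ebp3, which was listed at 0 in all 6 libraries. Markers of the oocyte and cleavage embryo summed to 12165 to 16072 FPKM in (+) and 8714 to 9899 in (-), and their part in the members' values was not tested.

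**Figure D5:**
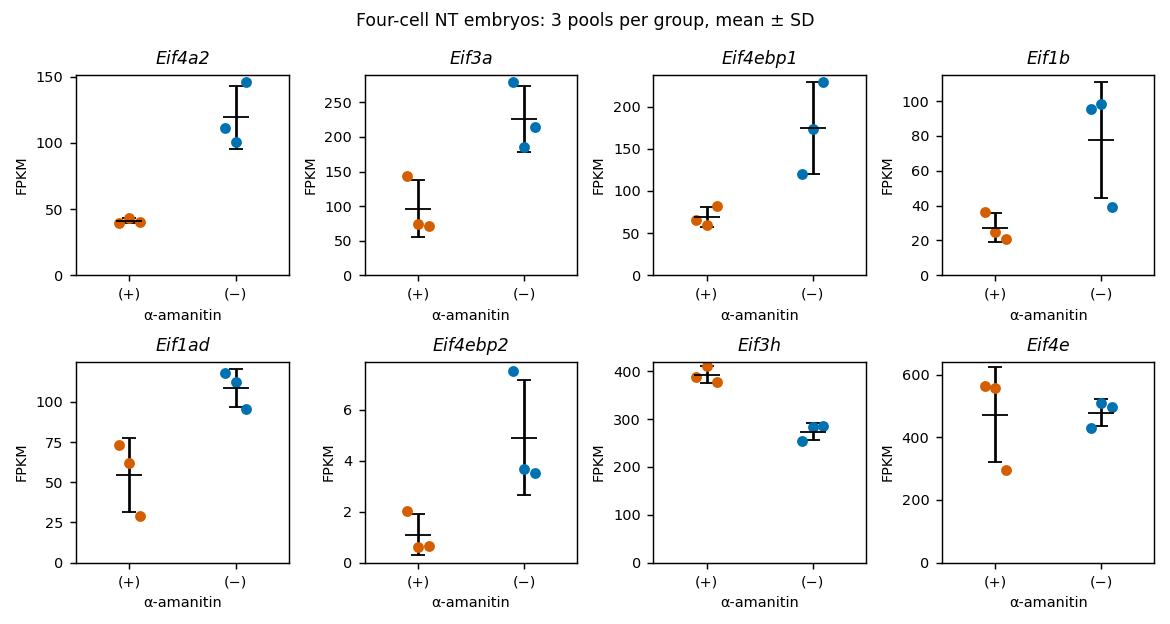
FPKM of 8 members in the four-cell libraries with (+) and without (-) α-amanitin; points are single libraries and bars give the mean ± SD (n = 3). The (-) points lie above the (+) points for Eif4a2, Eif3a and Eif4ebp1, those of Eif3h lie below, and those of Eif4e overlap.

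Between DR and D no member was called. Limma gave 0 of 51 tested members and 0% of the 14570 genes, with 3 members and 897 genes at an unadjusted p under 0.05, and a median log2 change of 0.07 for the members and 0.02 for all genes. The order of the leading members was the same in both groups, with Eif5a at 719 ± 70.8 FPKM in DR and 672 ± 166 in D (SD, n = 3), then Eif4e, Eif1 and Eif4a3. Single libraries stood out in D: Eif2s2 was at 170.4, 163 and 443 in D1, D4 and D5 and at 154, 129 and 189 in DR, and Eif4a2 was at 66.4, 42 and 231 in D and 34.9, 56.3 and 55.9 in DR. D5 was the highest library for both genes. Eif2s3y was at 3.53, 0 and 1.86 in D and 11.7, 0 and 8.58 in DR, at 0 in D4 and DR2, where the Y-linked genes measured summed to 0.0309 and 0.0306 FPKM. Spike-in factors differed up to 5.65 and down to 0.0944 between these libraries. On that scale the median was -1.50 for the members and -1.41 for all genes, again with 0 calls by limma and 0 members at an unadjusted p under 0.05.

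A list of 43 partner genes of translation, chosen beside the members, held elongation and release factors, poly(A)-binding proteins, re-initiation factors, the mTOR arm and the eIF2 stress response. In two-cell embryos 19 of 37 tested partners were higher without α-amanitin and 2 lower, with a median of 1.02, a share of 51.4% higher against 38.9% of all genes. The largest rise was that of Mcts2 (3.79, adjusted p = 0.00847), a re-initiation factor gene that was listed at 0 in all RAm libraries and was also called between NT and Am (1.09, adjusted p = 0.0199). The elongation factor gene Eef1d (2.06, adjusted p = 0.00756) was called between NT and Am too (0.94, adjusted p = 0.0377). Also higher were Ppp1r15a (2.64, adjusted p = 0.0094), the stress-induced subunit of the eIF2 phosphatase, Atf4 (2.14, adjusted p = 0.0218), the transcription factor of that response, and Mcts1 (2.04, adjusted p = 0.0218). Of these, Ppp1r15a, Atf4 and Mcts1 were not called between NT and Am, with adjusted p of 0.565, 0.356 and 0.595, while their changes between R and RAm were 4.71, 3.85 and 3.71. Lower were Paip1 (-1.21, adjusted p = 0.0221), which binds the poly(A)-binding protein, and Rps6kb1 (-0.77, adjusted p = 0.0357), a kinase downstream of mTOR, which were not called between NT and Am either. Between NT and Am 5 were higher and 0 lower, 13.5% against 13.4% of all genes and so no more than the background, and 11 had an unadjusted p under 0.05. Between R and RAm 29 were higher and 2 lower, 78.4% higher against 54.9% of all genes. In four-cell embryos limma called 0 of 33 and between DR and D 0 of 38, with 7 and 1 genes at an unadjusted p under 0.05.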

How the data were processed

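The authors trimmed reads and, per the submitters' notes, used Trimmomatic, Trim Galore, cutadapt, STAR and featureCounts with mm10, with versions not given in the sources used here. The FPKM were deposited as the authors computed them per gene length and counted reads, without spike-in scaling. Multiples of 1 read (tolerance 0.01 reads) made up 100% of the values in four-cell libraries and 39.7% to 50.5% in the others, whose reads are therefore approximate. Libraries were grouped by sample and column names. Genes that reached an FPKM of 1 in 3 or more libraries were tested on log2(FPKM + 1) with limma 3.58.1 (mean-variance trend) in R 4.3.3, one fit per table, with Benjamini-Hochberg adjustment over all genes tested, a threshold of 0.05 and the study's 4-fold criterion counted beside it. The fits within column sets used 4 group means in 1 model, and were chosen, like the fit with the set as a term, after seeing the data. The fitting step was tested on simulated data. Alternatives were median-ratio size factors, spike-in scaling, a pseudocount of 0.1, no filter, a mean FPKM of at least 5, no trend, a replicate block and leaving out each library. Named with all values were members called in the four-cell or two-cell contrast, up to 15 per direction by size, and fixed paralogue sets. Other members are given by ranges and counts, and up to 5 partners per direction. Members and gene lists were chosen with earlier results of these data known. A further 4 per-library columns of the replication table were not used, nor was the table with Oryx dammah donors, whose identifiers lie outside the selection of genes.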

Additional observations from a re-analysis of the deposited data

Results flagged for a closer look

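For 38 members the difference without against with α-amanitin was larger, and for 1 smaller, in the R and RAm columns than in the NT and Am columns (interaction in limma, adjusted p under 0.05). It was larger for 36% and smaller for 8.46% of all genes. Among the members named, the excess in the R and RAm columns on the log2 scale was 4.70 for Eif6, 3.99 for Eif1ad, 3.93 for Eif4e2, 3.68 for Eif3a, 3.63 for Eif3m, 3.29 for Eif4a3, 3.13 for Eif1, 3.03 for Eif2s3x and 3.02 for Eif4e. It was 2.97 for Eif4ebp1, 2.93 for Eif1b, 2.76 for Eif2s1, 2.57 for Eif2b2, 2.48 for Eif2b3, 2.30 for Eif4h and 2.26 for Eif2s3y. Smaller excesses were 1.38 for Eif5a, 1.29 for Eif1ax and 1.07 for Eif4g2, and the differences of Eif5a and Eif2s3y were called in 5 of 20 and 8 of 19 settings. Eif4e1b had a smaller value, -2.05, but it was tested only through the α-amanitin libraries where it was high, and was at 1.14 FPKM or less outside RAm, so this value is a description.

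In 62 groups of 6 two-cell libraries, 1 library stood far from the other 5 for 4 genes. These were Eif4a3l1 in NT1 (87.4 FPKM), Eif2b2 in NT3 (10.9), Eif4g1 in NT3 (4.42) and Eif4g2 in NT2 (101). Each group mixed both column sets, and how many such groups chance would mark was not tested.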

How the results depend on the processing

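The column names of the two-cell libraries carry the numbers 1 to 3, but libraries of the same number deviated together only weakly (r 0.0149 to 0.0654). Whether they share more than a number was not tested. With these numbers as a replicate block, 33 members were higher and 3 lower over 12 libraries (35% and 7.82% of all genes), 16 and 1 between NT and Am (11.7% and 3.71%), 48 and 3 between R and RAm (54.5% and 14%), and 37 and 1 in the difference (34.3% and 7.97%), and 8 of 12 libraries correlated best with their own number. No paired analysis was possible because the numbers in the four-cell column names do not match the sample names, and because DR 1 to 3 and D 1, 4 and 5 share 1 number. With the column set as a term, chosen after seeing the data, 44 members were higher and 3 lower, against 44.6% and 10.9% of all genes.

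With median-ratio size factors 1 member was higher and 1 lower in four-cell embryos (median -0.17). Over the 12 two-cell libraries 24 were higher, 10 of them at least 4-fold. The counts were 7 higher between NT and Am, 5 lower between R and RAm (median 1.32), and 21 larger and 2 smaller in the difference (median 0.83). Between R and RAm this turned Eif4g1 to -0.25, Eif4g2 to -0.40, Eif4g3 to -0.10 and Eif4ebp2 to -0.09, and in the difference Eif4g2 to -0.09. Spike-in scaling gave 0 lower, 42 at least 4-fold and a median of 2.80 over 12 libraries, 35 higher and 0 lower between NT and Am (1.40), 1 lower between R and RAm (4.39), 0 smaller in the difference (2.65), and a median of -1.50 in the replication experiment. It turned Eif4e3 to 0.62 and Eif2ak4 to 0.03 between R and RAm. A pseudocount of 0.1 gave 10 higher between NT and Am, a median of 2.99 between R and RAm, and 0 smaller in the difference (2.48). A mean FPKM of at least 5 gave 1 lower over 12 libraries, 1 lower between R and RAm (2.87), and 0 smaller in the difference (2.34). Without the filter 1 member was higher in four-cell embryos and 10 higher and 0 lower between NT and Am, and without the trend 1 was higher in four-cell embryos. Apart from the scalings, whose effect follows from their construction, the cause was not tested.

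Leaving out single libraries gave 0 to 6 higher in four-cell embryos (median -0.04 to 0.19). Over the 12 two-cell libraries it gave 28 to 44 higher, 2 to 3 lower and 15 to 23 at least 4-fold (1.26 to 1.65). Between NT and Am there were 9 to 23 higher and 0 to 1 lower (0.43 to 0.73). Between R and RAm there were 47 to 51 higher and 3 lower (2.44 to 2.72). In the difference 33 to 39 were larger and 1 smaller (1.72 to 2.04), and the replication experiment had 0 calls (0.05 to 0.13). Four-cell libraries held 1136771 to 3101002 reads and two-cell libraries 4712271 to 10503830, and the part of depth in the number of calls was not tested.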
